A study of Saccharomyces cerevisiae with 4 samples.

Results

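The genes described here are 10 genes of phospholipid metabolism in the budding yeast Saccharomyces cerevisiae. They were chosen by name from 6211 open reading frames on the arrays: the phospholipase B genes PLB1 (YMR008C), PLB2 (YMR006C) and PLB3 (YOL011W), the inositol genes INO1 (YJL153C), OPI1 (YHL020C) and ITR1 (YDR497C), and the synthesis genes CHO1 (YER026C), PSD1 (YNL169C), CHO2 (YGR157W) and OPI3 (YJR073C). All 10 had a value on every array and were among the 6130 genes tested. They were proposed with the ratios of these same arrays known. Their ratios and adjusted p-values are therefore given as a description and support nothing by themselves.

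Each of 4 arrays compared RNA of a strain labelled GCN2c with RNA of a wild-type strain. Both came from log-phase cells grown in rich medium (YPD) at 28 °C to an absorbance (Ab660) of 0.6. The sample labels call GCN2c a mutant and the design text calls it an overexpressing strain. No background strain, ploidy, promoter, plasmid or drug treatment is given. GCN2 encodes the kinase of the translation factor eIF2 that responds to uncharged tRNA. Replicates 1 and 3 carried the GCN2c RNA in Cy5, and replicates 2 and 4 carried it in Cy3. Replicates 2 and 4 differed by at most 0.004 for each of the 10 genes. Over all genes the SD of their difference was 0.0638, against 0.852 between replicates 1 and 3, so replicates 2 and 4 were averaged into 1 replicate, called the merged Cy3 replicate below. This left 3 replicates, and n = 3 for each of the 10 genes.

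Values are the authors' log ratios, taken to be log2 and to have GCN2c as numerator and wild type as denominator. Neither is stated by a label. Ratios are usually Cy5 over Cy3, and replicates 1 and 3 had GCN2c in Cy5. The sample titles read WT vs GCN2 and so name wild type first. Ratios of opposite dye orientation correlated above 0 across genes (median r = 0.237 over 4 pairs of arrays), so the ratios were taken as already turned one way, although a dye effect in ratios not turned could also raise this correlation. The numerator is not settled, and with the opposite numerator each sign given here would be the reverse. The GCN2 spot itself read -0.39, 0.10 and -0.68 on replicate 1, replicate 3 and the merged Cy3 replicate (limma adjusted p = 0.453), so it gave no check of the label.

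Phospholipids of yeast membranes are made from phosphatidic acid by way of CDP-diacylglycerol. Phosphatidylserine made from it is decarboxylated to phosphatidylethanolamine, and this is methylated to phosphatidylcholine. Phosphatidylinositol is made from the same precursor and free inositol. The activators Ino2 and Ino4 switch on many of these genes, and the repressor Opi1, which binds phosphatidic acid at the endoplasmic reticulum, switches them off when inositol is plentiful. Phospholipases B remove both fatty acids from a phospholipid and leave a water-soluble glycerophosphodiester.

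The 10 genes did not move as a block. PLB2 was lower on every replicate, PLB3 was higher on every replicate, and the other 8 genes did not pass the threshold. The background was 2.06% of the 6130 genes past a limma adjusted p of 0.05 (106 higher, 1.73%, and 20 lower, 0.326%). Nothing is read from the members' count, since the members were chosen on this contrast. The 10 genes had a median mean ratio of -0.03, against -0.06 over all genes tested, and ranged from -1.95 to 1.28. From lowest to highest the order was PLB2, OPI1, CHO2, CHO1, ITR1, PSD1, PLB1, INO1, OPI3 and PLB3. PLB2 and OPI1, its neighbour in this order, had no overlapping replicate values, and every other pair of neighbours in the order overlapped.

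**Figure D1:**
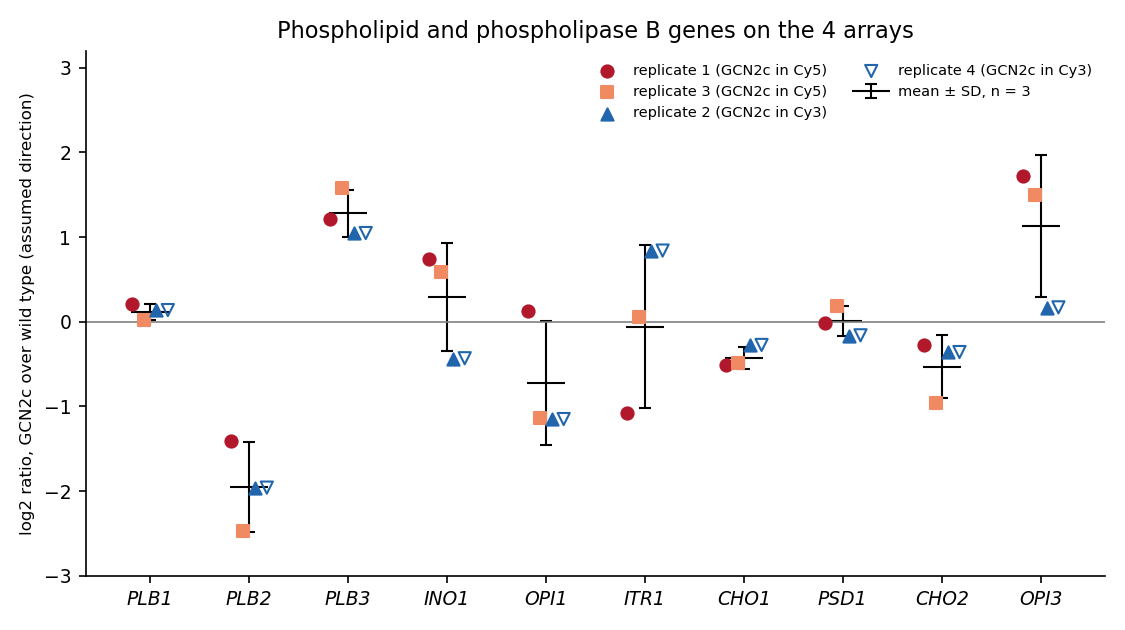
Log2 ratio of GCN2c over wild type (assumed direction) for the 10 genes, 1 marker per array and a bar at the mean ± SD over 3 replicates. PLB2 lies below 0 and PLB3 above 0 on every array. ITR1 runs from -1.08 on replicate 1 to 0.84 on the merged Cy3 replicate.

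The phospholipase B family split, with 1 gene low, 1 high and 1 near 0. Its enzymes sit at the cell surface or are secreted, and the 3 genes are paralogues.

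PLB2, a phospholipase B with lysophospholipase activity, had log2 ratios of -1.41 on replicate 1, -2.48 on replicate 3 and -1.96 on the merged Cy3 replicate. Its replicates all lay below the lowest replicate of the other 9 genes. The mean was -1.95 ± 0.53 (SD, n = 3; limma adjusted p = 0.0328), which is 3.86-fold lower, and only 11 of the 6130 genes tested had a lower mean. Leaving out replicate 3 gave -1.69 with an adjusted p of 0.0505, and turning replicates 2 and 4 gave -0.64 with an adjusted p of 0.951.

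PLB3, the family member that acts mainly on phosphatidylinositol and phosphatidylserine, had log2 ratios of 1.21 on replicate 1, 1.58 on replicate 3 and 1.05 on the merged Cy3 replicate. The replicates were all positive and lay closer together than those of PLB2. The mean was 1.28 ± 0.27 (SD, n = 3; limma adjusted p = 0.0485), a 2.43-fold higher level and rank 167 from the top. This call was close to the threshold. The adjusted p was 0.0636 without replicate 1, 0.252 without replicate 3, 0.0535 with no filter on missing values, and 0.928 with replicates 2 and 4 turned.

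PLB1, a phospholipase B of the cell surface that acts on phosphatidylcholine and phosphatidylethanolamine, had log2 ratios of 0.20, 0.02 and 0.14 in the same order. Its mean of 0.12 ± 0.10 (SD, n = 3; limma adjusted p = 0.746) was the steadiest of the 10 genes, and 5.66% of genes had an SD as low. PLB1 was thus measured near 0 on every replicate while its paralogues lay on either side.

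Compared within each array, the ratio of PLB3 exceeded that of PLB2 by 2.63 on replicate 1, 4.06 on replicate 3 and 3.01 on the merged Cy3 replicate. The mean difference was 3.23 ± 0.74 (SD, n = 3). PLB1 exceeded PLB2 by 1.62, 2.49 and 2.10, a mean of 2.07 ± 0.44. PLB3 exceeded PLB1 by 1.01, 1.57 and 0.91, a mean of 1.16 ± 0.35. Each of these differences had one sign on every replicate. The order of the paralogues therefore did not vary between replicates. Probe sequences were not used here, and whether the spots of these paralogues share signal was not tested.

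PLB1 and PLB2 are close neighbours in the yeast R64 gene order, with YMR007W between them. YMR007W had log2 ratios of 0.41, -0.01 and -0.88 on replicate 1, replicate 3 and the merged Cy3 replicate. On the far side of PLB2, TAF4, a subunit of the general transcription factor TFIID, had 0.49, 0.03 and -0.46. Both changed sign between replicates, unlike PLB2. The open reading frame on the far side of PLB1 (YMR008C-A) was not analysed here.

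**Figure D2:**
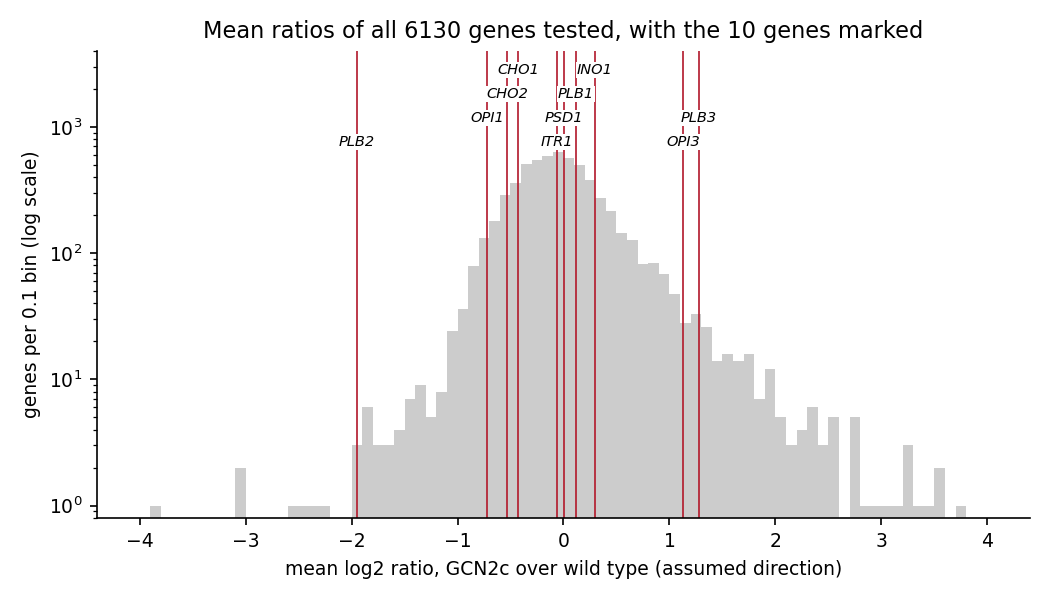
Number of genes (log scale) by mean log2 ratio over 3 replicates, in bins for the 6130 genes tested, with a red line at each of the 10 genes. PLB2 lies in the thin lower tail at -1.95, PLB3 and OPI3 lie in the upper tail, and 10 genes beyond 4 in size are not drawn.

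The inositol genes showed no shared direction, and none of them passed the threshold. INO1 encodes inositol-3-phosphate synthase, the enzyme that makes inositol from glucose 6-phosphate. Its log2 ratios were 0.74 on replicate 1, 0.58 on replicate 3 and -0.43 on the merged Cy3 replicate. It was positive where GCN2c was in Cy5 and negative where it was in Cy3. The mean was 0.30 ± 0.64 (SD, n = 3; limma adjusted p = 0.598).

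ITR1, the major inositol transporter of the plasma membrane, had log2 ratios of -1.08 on replicate 1, 0.05 on replicate 3 and 0.84 on the merged Cy3 replicate. Its replicates lay on both sides of 0, and its SD was the largest of the 10 genes. The mean was -0.06 ± 0.96 (SD, n = 3; limma adjusted p = 0.948), and without replicate 1 it was 0.45 (adjusted p = 0.499).

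OPI1, the repressor, had log2 ratios of 0.12 on replicate 1, -1.14 on replicate 3 and -1.15 on the merged Cy3 replicate. Replicate 3 and the replicate of the other dye orientation were nearly equal, and replicate 1 stood apart from both. The mean was -0.72 ± 0.73 (SD, n = 3; limma adjusted p = 0.269). It was -1.15 without replicate 1 (adjusted p = 0.0954) and -0.52 without replicate 3 (adjusted p = 0.766). Within each array the ratio of INO1 exceeded that of OPI1, by 0.62, 1.72 and 0.72 in the same order, a mean of 1.02 ± 0.61 (SD, n = 3).

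None of the 4 synthesis genes on the route from phosphatidylserine to phosphatidylcholine passed the threshold. CHO1, phosphatidylserine synthase, had log2 ratios of -0.51, -0.49 and -0.28 on replicate 1, replicate 3 and the merged Cy3 replicate. The 3 values were negative and lay within a narrow range. The mean was -0.43 ± 0.13 (SD, n = 3; limma adjusted p = 0.256).

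PSD1, the mitochondrial phosphatidylserine decarboxylase, had log2 ratios of -0.02, 0.19 and -0.16. Its values straddled 0, with a mean of 0.0033 ± 0.18 (SD, n = 3; limma adjusted p = 0.996).

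CHO2, which adds the first methyl group to phosphatidylethanolamine, had log2 ratios of -0.27 on replicate 1, -0.96 on replicate 3 and -0.36 on the merged Cy3 replicate. All were negative, and replicate 3 was the lowest. The mean was -0.53 ± 0.37 (SD, n = 3; limma adjusted p = 0.249).

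OPI3, the methyltransferase of the later steps to phosphatidylcholine, had log2 ratios of 1.73 on replicate 1, 1.501 on replicate 3 and 0.17 on the merged Cy3 replicate. It was high on replicates 1 and 3 and near 0 in the opposite dye orientation. The mean was 1.13 ± 0.84 (SD, n = 3; limma adjusted p = 0.167). It passed without replicates 2 and 4 (mean 1.61, limma adjusted p = 0.0190). That fit rests on replicates 1 and 3 alone, where dye and strain cannot be told apart. With a dye term the mean was 0.89. The gene's own spread in that fit also came from replicates 1 and 3 alone, since only 1 replicate was in Cy3. For this reason no p-value is given for the dye-term fit.

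CHO2 and OPI3, which catalyse successive methylations, thus lay on opposite sides of 0 on every replicate. Within each array the ratio of OPI3 exceeded that of CHO2 by 1.997, 2.46 and 0.53 on replicate 1, replicate 3 and the merged Cy3 replicate. The mean difference was 1.66 ± 1.01 (SD, n = 3), and it was smallest in the replicate with GCN2c in Cy3.

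Of the 10 genes, 6 kept one sign over the 3 replicates: PLB1, PLB2, PLB3, CHO1, CHO2 and OPI3. Over all genes with 3 values this held for 46.6%. Replicates 1 and 3 shared a sign for 7 of the 10 genes, against 71.7% of all genes. Replicate 1 shared a sign with replicates 2 and 4 for 7, against 56.3% of all genes, and replicate 3 did so for 8, against 64.9%. The median SD of the 10 genes was 0.45, against 0.33 over all genes.

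The dye orientations gave nearly the same ratio for some of the 10 genes and distant ratios for others. With GCN2c in Cy5 the mean of PLB2 was -1.94, and in the opposite orientation it was -1.96. PLB1 had 0.11 and 0.14 in that order. PLB3 was at 1.40 and 1.05. OPI3 was at 1.61 and 0.17, ITR1 at -0.51 and 0.84, and INO1 at 0.66 and -0.43. A gap as large as that of OPI3 was met by 6.57% of all genes, as large as that of ITR1 by 7.55%, and as large as that of INO1 by 12.4%. With 1 independent replicate in Cy3, the part of the dye in these gaps was not tested.

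**Figure D3:**
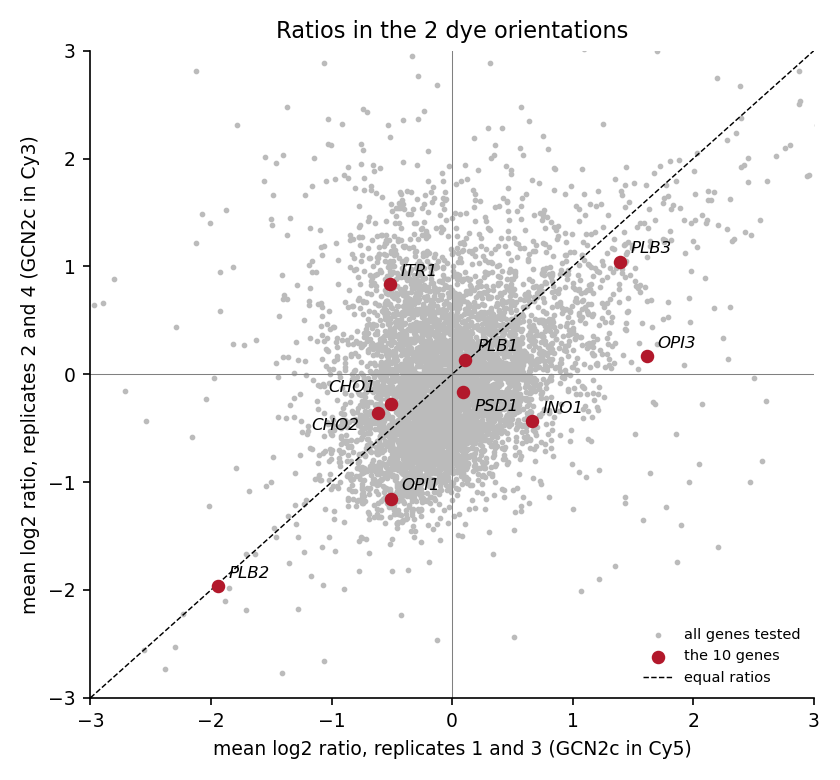
Mean log2 ratio of replicates 1 and 3 (GCN2c in Cy5, horizontal axis) against the mean of the near-identical replicates 2 and 4 (GCN2c in Cy3, vertical axis). Grey points are all genes tested, red points the 10 genes, and the dashed line marks equal ratios. PLB2 lies on the line and OPI3, ITR1 and INO1 lie far from it; 60 genes beyond 3 on either axis are not drawn.

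Other genes of lipid metabolism were read from lists of 57 genes, of which 53 could be tested. The lists were written from textbook knowledge, but with earlier results of these data known. Of the 53 tested, CLD1 and HAC1 rose, none fell and 51 did not pass limma. Over all genes tested 2.06% passed, 1.73% as higher and 0.326% as lower. At an unadjusted p under 0.05, 9 of the 53 passed, against 20.7% of all genes. One-class SAM on 3 replicates called 2 of the 52 it tested, both higher, against 3.34% of all genes it tested. The median of the 53 mean ratios was 0.02, against -0.06 over all genes tested.

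CLD1, a mitochondrial phospholipase that removes a fatty acid from cardiolipin, had log2 ratios of 2.35 on replicate 1, 2.0 on replicate 3 and 1.69 on the merged Cy3 replicate. It was high on every replicate, with a mean of 2.02 ± 0.33 (SD, n = 3; limma adjusted p = 0.0193). HAC1, the transcription factor of the unfolded protein response, whose mRNA is spliced by Ire1, had 1.99, 1.498 and 1.26. Its mean was 1.58 ± 0.38 (SD, n = 3; limma adjusted p = 0.0361), and without replicate 3 the adjusted p was 0.0632. With replicates 2 and 4 turned, neither passed (adjusted p = 0.925 for CLD1 and 0.921 for HAC1).

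Of 8 further genes of the CDP-diacylglycerol route that were tested, CLD1 rose and 7 did not pass, and the median was -0.01. CDS1, CDP-diacylglycerol synthase, was at -0.64 ± 0.26 (SD, n = 3; limma adjusted p = 0.168), negative on every replicate. PIS1, phosphatidylinositol synthase, was not analysed here. The 6 genes of the Kennedy pathway, which builds phosphatidylcholine and phosphatidylethanolamine from free choline and ethanolamine, ranged from -0.20 for CPT1 to 0.27 for CKI1, with none past the threshold. Among 12 genes of phosphatidate formation and use none passed, with a median of 0.01. ALE1, a lysophospholipid acyltransferase, stood at -0.68 ± 0.42, and LPP1, a lipid phosphate phosphatase, at -0.55 over 2 replicates.

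Regulators of the inositol-responsive genes had a median of 0.02 over 9 genes, 5 with a positive mean and 4 with a negative one. The activator genes INO2 and INO4 stood at -0.21 ± 0.20 and -0.28 ± 0.28 (SD, n = 3), negative on every replicate. Neither passed (limma adjusted p = 0.564 and 0.468). Beside HAC1, IRE1, the sensor kinase and nuclease that splices its mRNA, stood at 0.45 ± 0.09 (SD, n = 3; limma adjusted p = 0.230), positive on every replicate. The 5 genes of transport and inositol phosphatases had none past the threshold. ITR2, the minor inositol transporter, stood at -0.28 ± 0.24. GIT1, the permease for the glycerophosphoinositol that phospholipases B release, had log2 ratios of -0.16, -3.69 and 0.59, so that replicate 3 alone set its mean of -1.09 ± 2.28 (0.21 without replicate 3).

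Of 10 other phospholipases and lipid turnover genes, a list that does not hold the phospholipase gene CLD1, none passed, and their median was 0.23. GPC1, which reacylates glycerophosphocholine, stood at -0.48 ± 0.17 (SD, n = 3; limma adjusted p = 0.226). SPO14, phospholipase D, stood at 0.37 ± 0.12 (adjusted p = 0.303). The 3 fatty acid genes tested had a median of -0.46. ACC1, acetyl-CoA carboxylase, stood at -0.72 ± 0.54 (adjusted p = 0.207), and ACS2, an acetyl-CoA synthetase, at -0.46 ± 0.09 (adjusted p = 0.226). ACC1 had log2 ratios of -0.21 on replicate 1, -0.67 on replicate 3 and -1.29 on the merged Cy3 replicate. With a dye term its mean was -0.87. In that fit the merged Cy3 replicate weighed as much as replicates 1 and 3 together. It was the only replicate in Cy3, so no p-value of the dye-term fit is given.

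**Figure D4:**
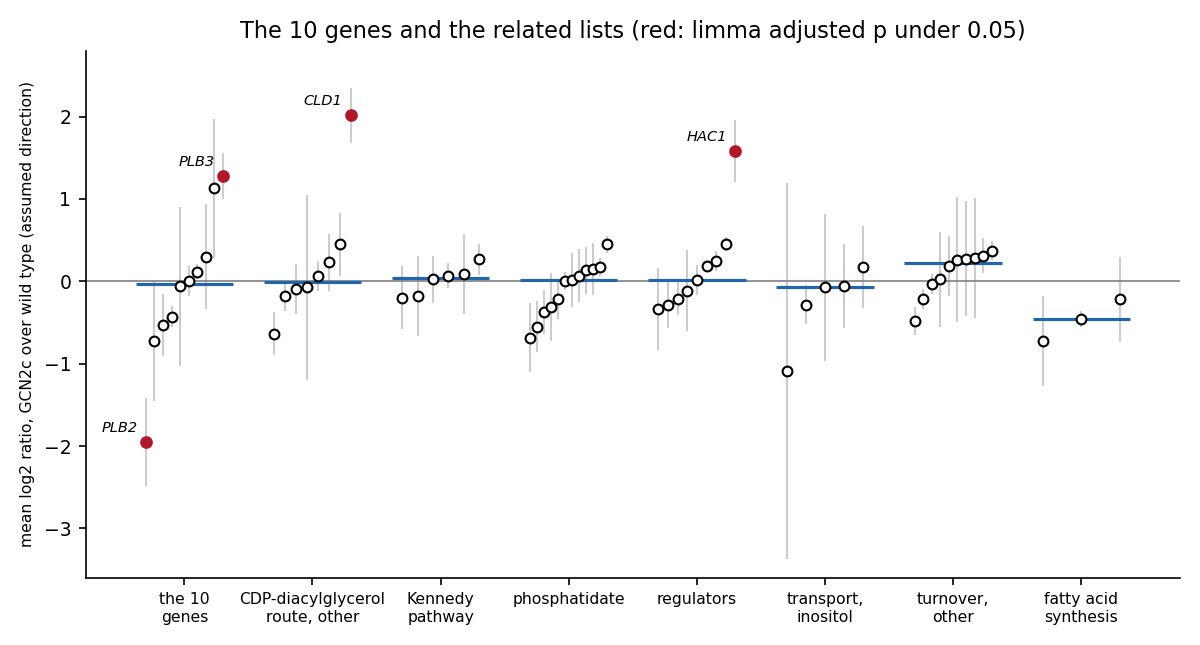
Mean log2 ratio over 3 replicates (LPP1 over 2), 1 point per gene, for the 10 genes and 7 related lists, with grey bars for the SD and blue lines for each list's median. Red points passed a limma adjusted p of 0.05: PLB2 and PLB3 among the 10 genes, and CLD1 and HAC1 elsewhere.

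The genes most like PLB2, INO1 and OPI3 were sought by Euclidean distance over the 3 replicate values, among 5985 other genes. Closest to PLB2 was CHA1, the serine and threonine deaminase, at a distance of 0.31, with log2 ratios of -1.54, -2.23 and -2.10 on replicate 1, replicate 3 and the merged Cy3 replicate. YER181C followed at 0.47 and the dicarboxylic amino acid permease gene DIP5 at 0.62. Closest to OPI3 were CAR2, ornithine aminotransferase, and MMO1, each at 0.18, and MET1, of sirohaem synthesis, at 0.40. CAR2 had log2 ratios of 1.60, 1.497 and 0.29. Closest to INO1 were YDL086W at 0.05, YAH1, a mitochondrial ferredoxin, at 0.07, and MRP4, a mitochondrial ribosomal protein, at 0.09. These genes were picked for their likeness over these same 3 values, so the distances are a description and carry no test.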

How the data were processed

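Two-colour arrays were analysed from the deposited log2 ratios, which the authors made from 30 µg of total RNA per labelling, per the labels' protocols. Per the labels' descriptions, spots with defects, or not above 2 times local background in both channels, were flagged. The scanner, background correction, normalization and log base are not given in the sources used here. Array medians lay between -0.089 and -0.034, so no centring was applied. Spot intensities were not used here, and the number of arrays limits the precision.

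Names were matched to R64 locus tags, ignoring case (5662 of 6211). Sequences and promoter motifs were not used here. Reference coordinates served only to order the genes beside PLB1 and PLB2. Replicates 2 and 4 were averaged. Genes with values on at least 3 of 4 arrays were fitted with limma 3.58.1 in R 4.3.3 (mean against 0, two-sided, Benjamini-Hochberg over 6130 genes, threshold 0.05), checked on simulated data. The submitters' one-class SAM was run as an alternative with a symmetric limit at a false discovery rate of 0.05. An exact sign-flip test of 3 replicates cannot give a p below 0.25. The limma p-values set each mean against a spread between these replicates that is partly shared over genes. The genes and lists were chosen with earlier results of these data known. Text names all 10 genes, each list's called genes and its 2 largest means, and the activator genes INO2 and INO4. It also names 3 nearest patterns for PLB2, INO1 and OPI3, and the neighbours of PLB1 and PLB2.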

Additional observations from a re-analysis of the deposited data

How the results depend on the processing

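The count of 126 genes called by limma was 1062 with the 4 columns as 4 replicates, 650 with a dye term, 191 over genes on all 4 arrays, 200 by SAM on 3 replicates and 1394 by SAM on 4 columns. Leaving out single replicates it ranged from 74 (without replicate 3) to 148 (without replicate 1), and it was 353 without replicates 2 and 4. With replicates 2 and 4 turned limma called 0 genes, 0 of the 10 and 0 of the 53 related genes, while 250, 1 and 2 had an unadjusted p under 0.05. The 2 calls among the 10 genes became 1 with no filter (PLB2) and 4 by SAM on 4 columns (PLB2, PLB3, OPI1 and OPI3). They ranged from 0 to 2 over the single leave-one-out fits and numbered 3 without replicates 2 and 4 (PLB2, PLB3 and OPI3). The 0 was without replicate 3, where 3 of the 10 had an unadjusted p under 0.05, and the 1 without replicate 1 was PLB2. The 2 related calls became 7 with the 4 columns as 4 replicates and 7 by SAM on 4 columns. They ranged from 1 to 2 over the leave-one-out fits. Means that changed sign were those of ITR1 (0.16 with 4 columns, a dye term or SAM on 4 columns) and PSD1 (-0.038 with the same 3 settings). With replicates 2 and 4 turned, OPI1 (0.045), ACC1 (0.14), CPT1 (0.15), LPP1 (0.22), ITR2 (0.027) and GCN2 (0.13) also did. Over the single leave-one-out fits ITR1 ranged from -0.12 to 0.45, PSD1 from -0.091 to 0.014 and GIT1 from -1.55 to 0.21. The cause was not tested. Centring the arrays, and leaving out values beyond 16, changed no call or sign among the 10 genes and the named related genes. Each array paired GCN2c RNA with wild-type RNA, so the test of the mean ratio against 0 already used this pairing. In the dye-term fit each gene's own spread came from replicates 1 and 3 alone, since only 1 replicate was in Cy3. Counts of calls are therefore not given for the dye-term fit. Signal over background could not be judged without intensities.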
